A study of Mus musculus with 8 samples.

Results

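The G1 cyclins, their kinases and the Rb family were examined as 10 genes, Ccnd1, Ccnd2, Ccnd3, Ccne1, Ccne2, Cdk2, Cdk4, Cdk6, Rb1 and Rbl1, among 22504 genes in the table. They were chosen by name, and each matched one row. RNA sequencing values were given for 8 Fah-/- mice of the 129S4 strain, whose ages are not given in the sources used here. These mice lack fumarylacetoacetate hydrolase, which completes tyrosine catabolism, and live on NTBC, an inhibitor of an upstream step, given at 7.5 mg/L in the drinking water. In moderate chronic liver injury (MCLI) NTBC was reduced to 2.5% of that dose, and in severe acute liver injury (SALI) it was withdrawn. The C 8w group had 8 weeks of MCLI (n = 3, liver). The C 8w + A 4w group, also called the SALI group here, had 8 weeks of MCLI and then 4 weeks of SALI (n = 3, liver). The C 12w group had 12 weeks of MCLI (n = 2, labelled tumor). None of the samples analysed here came from a mouse on full NTBC, so every group carried chronic injury and the Fah deletion.

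D-type cyclins (Ccnd1, Ccnd2, Ccnd3) are made in response to growth signals and activate Cdk4 and Cdk6 in the G1 phase of the cell cycle. These kinases, and later Cdk2 with the E-type cyclins (Ccne1, Ccne2), phosphorylate Rb1 and its relatives Rbl1 and Rbl2, which then release the E2F factors that switch on genes of DNA synthesis. Hepatocytes of adult liver are mostly outside the cycle, and Ccnd1 is known for its rise when they re-enter it after injury or partial hepatectomy. Several of these genes, among them Ccne1, Ccne2 and Rbl1, are themselves E2F targets.

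Levels are FPKM, fragments scaled for gene length and sequencing depth, which is meant to let genes be set side by side within a sample. In C 8w and C 12w, however, Alb was listed at 0 and Gapdh and Ppia below 1 FPKM, as given below. Whether values of the members are affected in a like manner was not tested. Differences are on the log2(FPKM + 1) scale, which understates the change of low genes, and were tested with limma over the 10244 genes that reached 1 FPKM in 4 or more samples. A gene was called changed at a Benjamini-Hochberg adjusted p under 0.05. Because C 12w holds only 2 samples, a gene that is high there alone cannot reach the floor in 4 samples. Rbl1 was such a gene, and it was tested over the 13473 genes that passed a floor of 0.1 FPKM in at least 4 samples. Where a C 12w sample was left out, that group was 1 mouse, assumed to vary like the other groups, which then supplied all of the spread. The p-values measure the spread between these samples, and how the mice were allotted to groups is not given in the sources used here.

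Some facts of the libraries bear on all that follows. The hepatocyte markers other than Alb summed to between 10835 and 16277 FPKM in every sample, a sum led by Ttr and Apoa1. Of 11 tested, F2, Cyp2e1, Cps1 and Arg1 were lower and Ass1 and Apoa1 higher in the SALI group against C 8w, and the list median was -0.77 against 0.12 for all genes. Against C 8w, C 12w had Apob higher and Cyp2e1 lower, with a median of 0.17. Against C 12w, the SALI group had Ass1 and Cyp2e1 higher and F2, Tat, Cps1 and Apob lower, with a median of -0.28. Retina markers, checked because the extraction protocol in the labels names retinas, were listed at 0 throughout for Crx and Rcvrn, and the whole list summed to between 2.02 and 3.69 FPKM. Alb was listed at 0 in the 5 libraries other than those of the SALI group, where it was at 12946 FPKM or more, and Gapdh and Ppia stood below 1 FPKM in those 5 samples only. Those 5 carry one series of sample codes and the SALI group another, and whether both series were processed alike is not given in the sources used here. Processing that differed between the code series and the 4 weeks of SALI therefore cannot be told apart in any comparison that includes the SALI group. The SALI group was also 4 weeks later than C 8w, so that time and SALI cannot be told apart there. C 12w differed from C 8w in weeks of MCLI and in tissue label (tumor against liver). From the SALI group it differed in treatment and in tissue label. Neither pair can be told apart here. Macrophage markers summed to 350.2 FPKM in C 8w + A 4w replicate 2 and to between 107 and 144 in the remaining 7 samples. Bile duct markers summed to 13.6 to 19.1 FPKM in C 8w, 30.5 to 37.4 in the SALI group, and 32.4 and 355 in replicates 2 and 3 of C 12w. Every later sample was thus above C 8w. Spp1 made up most of the sum of 355, so that this value rests mainly on 1 gene. Of 5 tested, Epcam was called higher in the SALI group and Spp1, Sox9 and Epcam in C 12w. Endothelial markers summed to 59.2 to 65.1 FPKM in C 8w, 28.4 to 49.9 in the SALI group and 33.0 to 38.3 in C 12w. Clec4g, Stab2, Eng and Kdr, 4 of 8, were lower than in C 8w in both later groups, and Lyve1 was higher in the SALI group. Stellate and fibroblast markers summed to 82.7 to 94.0 FPKM in C 8w, 87.0 to 137 in the SALI group and 72.1 to 87.2 in C 12w. Of 7 tested, Col3a1 and Col1a2 were higher and Dcn lower in C 12w, and Col3a1 lower in the SALI group, against C 8w. At the floor of 0.1 FPKM Col1a1 was also higher in C 12w. Against C 12w, Lrat and Dcn were higher and Col3a1 and Col1a2 lower in the SALI group. The median change of all genes tested was 0.12 in both comparisons with C 8w and 0.01 between the later groups. Median-ratio scaling brought it to -0.01 in both comparisons with C 8w.

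Promoters are shown for the members that rose from C 8w to C 12w and that the RefSeq promoter table (GRCm38.p6) holds, since E2F factors bind the promoters of such genes. Each runs 5′ to 3′ from 250 bases before to 50 bases after the gene's start, 300 bases in all. Capitals mark a match, on either strand, to the letters TTTCCCGC, TTTCGCGC, TTTGGCGC or TTTGCCGC, written here as an E2F motif. The windows are chr7:38107441-38107740 (minus strand) for Ccne1, chr10:128705002-128705301 (minus strand) for Cdk2 and chr2:157204485-157204784 (minus strand) for Rbl1.
Ccne1: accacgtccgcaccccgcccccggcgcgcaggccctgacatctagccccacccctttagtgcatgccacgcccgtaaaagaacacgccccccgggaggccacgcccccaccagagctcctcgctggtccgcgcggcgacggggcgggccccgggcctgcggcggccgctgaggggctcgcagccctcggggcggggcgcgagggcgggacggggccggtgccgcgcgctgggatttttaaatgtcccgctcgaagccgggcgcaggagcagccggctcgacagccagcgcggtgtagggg
Cdk2: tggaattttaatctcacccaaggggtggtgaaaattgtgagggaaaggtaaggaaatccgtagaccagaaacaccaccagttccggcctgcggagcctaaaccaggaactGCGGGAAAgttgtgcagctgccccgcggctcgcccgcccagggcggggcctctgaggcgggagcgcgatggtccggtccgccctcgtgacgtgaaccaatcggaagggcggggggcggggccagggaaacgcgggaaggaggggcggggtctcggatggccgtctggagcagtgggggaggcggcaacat
Rbl1: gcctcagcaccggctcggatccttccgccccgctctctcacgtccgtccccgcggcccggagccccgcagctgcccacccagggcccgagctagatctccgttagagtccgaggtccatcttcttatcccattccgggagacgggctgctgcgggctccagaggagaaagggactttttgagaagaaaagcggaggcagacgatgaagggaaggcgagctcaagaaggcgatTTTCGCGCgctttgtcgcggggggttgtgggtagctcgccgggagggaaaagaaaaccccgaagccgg

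The Rbl1 match began 18 bases before the start, and the Cdk2 match, the complement GCGGGAAA of TTTCCCGC, began 140 bases before it. The Ccne1 window held none of these letters. The table held 7 promoters of 6 members (Ccnd3, with 2, Ccne1, Cdk2, Cdk4, Cdk6 and Rbl1), and the motif was found in those of Cdk2 and Rbl1. Among all 32851 promoters of the table, 2.26% held it. The member promoters had a GC content between 59.3% and 76.0%, against a median of 52.7% over all promoters. A match of letters is a description and no binding was measured.

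The members were ordered much alike in the 3 groups. In C 8w, Ccnd3 was the most abundant at 43.9 ± 3.49 FPKM (SD, n = 3), followed by Cdk4 at 15.8 ± 1.16 and Ccnd1 at 15.1 ± 8.37, whose ranges overlapped. Cdk6, Rb1 and Cdk2 lay between 2.58 and 3.02, each overlapping its neighbour. Ccnd2 (1.25), Ccne1 (0.933), Ccne2 (0.903) and Rbl1 (0.390) were the lowest, and only Ccne1 and Ccne2 among them overlapped. In the SALI group the order was Ccnd3, Ccnd1, Cdk4, Cdk6, Rb1, Ccne1, Cdk2, Ccne2, Ccnd2 and Rbl1. There the ranges overlapped between Ccnd3 and Ccnd1, Ccnd1 and Cdk4, Cdk6 and Rb1, Ccne1 and Cdk2, and Ccnd2 and Rbl1. The order in C 12w was Ccnd1, Ccnd3, Cdk4, Cdk6, Cdk2, Rb1, Ccne1, Ccne2, Rbl1 and Ccnd2. Neighbours overlapped there except Ccnd3 with Cdk4, Cdk4 with Cdk6, Rb1 with Ccne1 and Rbl1 with Ccnd2. In C 12w, Ccnd2 stood last, at 1.12 and 1.58 FPKM and below Rbl1 at 1.59 and 1.75. Over all 8 samples Ccnd3 stood at the 88.4th percentile of the genes tested and Ccnd2 at the 1.86th.

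**Figure D1:**
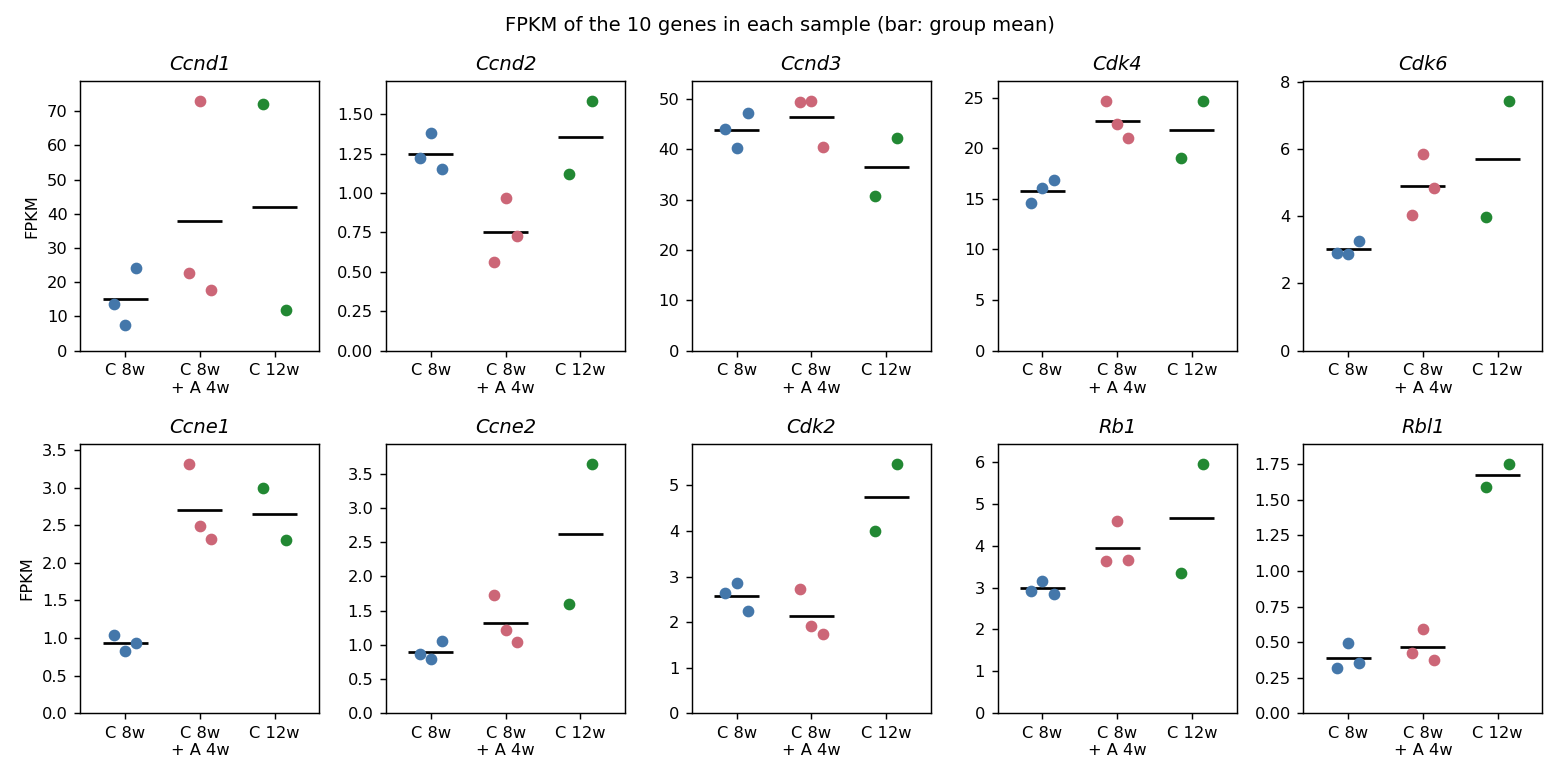
FPKM (vertical axes, each from 0) of the 10 genes in each of 8 samples, with points for samples and a bar for the group mean. Rbl1 lies between 1.59 and 1.75 in C 12w and at 0.593 or less in the other 6 samples, and Ccnd1 spans from 11.9 to 72.2 within C 12w.

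Among the D cyclins, Ccnd1 differed as much between mice of a group as between groups. Its FPKM was 13.7, 7.46 and 24.03 in the C 8w mice. It was 22.7, 73.0 and 17.7 in the SALI group, and 72.2 and 11.9 in replicates 2 and 3 of C 12w. One sample of the SALI group and one of C 12w were thus far above the rest, and all 3 groups overlapped. The within-group SD of Ccnd1 was 1.15 on the log2 scale, at the 99.7th percentile of the genes tested, whose median was 0.17. The difference of Ccnd1 between the SALI group and C 8w was 1.13 ± 0.73 (log2, SE, 95% interval -0.53 to 2.79, adjusted p = 0.246 with limma), and 0.53 without C 8w + A 4w replicate 2, the sample with the high macrophage markers. That of C 12w was 1.07 ± 0.81 (adjusted p = 0.36), and it became -0.18 without C 12w replicate 2 and 2.32 without replicate 3. The later groups differed by 0.06, with an interval from -1.80 to 1.92. The part that other cell types have in the Ccnd1 values was not tested, and in bulk tissue fewer cells of a type and less RNA per cell cannot be told apart. Of the 50-base windows of the Ccnd1 transcripts, 21.6% were shared with the overlapping gene LTO1, which stood between 2.43 and 5.33 FPKM in all samples.

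The genes whose centred values over the 8 samples lay nearest to those of Ccnd1 were 2010003K11Rik and Id4, an inhibitor of basic helix-loop-helix factors. They were sought among 10244 genes for the one member whose group means spanned at least 1 on the log2 scale, and their mean absolute differences from it were 0.39 and 0.42. The FPKM of 2010003K11Rik was 6.52, 6.64 and 10.1 in C 8w, 14.2, 24.3 and 9.98 in the SALI group, and 57.2 and 9.86 in C 12w. Id4 likewise had its highest values in C 12w replicate 2 (7.58) and C 8w + A 4w replicate 2 (5.61), and lay between 1.65 and 3.45 elsewhere.

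Ccnd3, the D cyclin with the highest level in C 8w, was not called in any comparison. Its FPKM was 44.1, 40.4 and 47.3 in C 8w, 49.3, 49.6 and 40.5 in the SALI group, and 30.8 and 42.3 in C 12w, with overlap between all groups. The difference from C 8w was 0.08 (95% interval -0.27 to 0.42) for the SALI group and -0.27 (-0.66 to 0.11) for C 12w. The SALI group differed from C 12w by 0.35 (-0.03 to 0.73). This last difference was called (0.57, adjusted p = 0.0358 with limma) without C 12w replicate 3, when C 12w was 1 mouse and the other groups supplied the spread, in a range of 0.0358 to 0.573 over the alternatives.

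Ccnd2, the lowest of the D cyclins in each group, stood at 1.22, 1.38 and 1.15 FPKM in C 8w and at 0.560, 0.971 and 0.730 in the SALI group. In C 12w it was 1.12 and 1.58. All 3 samples of the SALI group were below every sample of the other groups. The difference from C 8w was -0.37 ± 0.13 with an adjusted p of 0.0578 (limma), and that from C 12w was -0.42 ± 0.15 with an adjusted p of 0.0585, both just above 0.05 and so not called. The first was called under median-ratio and quantile scaling (-0.45 and -0.50, adjusted p 0.0148 and 0.00645) and with only the 2 groups compared (0.0262). The second was called under median-ratio, total and quantile scaling (0.0344, 0.0485 and 0.0420). At the floor of 0.1 FPKM the adjusted p values were 0.0506 and 0.0487, so that the second was called there. Over the alternatives the adjusted p ran from 0.00645 to 0.168 against C 8w and from 0.0227 to 0.208 against C 12w, and both fell under 0.05 without C 8w + A 4w replicate 2 (0.0392 and 0.0394). Without C 12w replicate 2 they were 0.0265 and 0.0227, and without C 12w replicate 3 the first was 0.0256.

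The make-up of the D cyclins varied from mouse to mouse. Ccnd3 gave 74.7%, 82.0% and 65.3% of their summed FPKM in C 8w and 67.9%, 40.2% and 68.7% in the SALI group. It gave 29.6% and 75.8% in C 12w. Ccnd1 was the majority of the D cyclins in C 8w + A 4w replicate 2 (59.1%) and C 12w replicate 2 (69.3%) only. The summed D cyclins ranged from 49.2 to 72.5 FPKM in C 8w, 58.9 to 124 in the SALI group and 55.8 to 104 in C 12w.

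**Figure D2:**
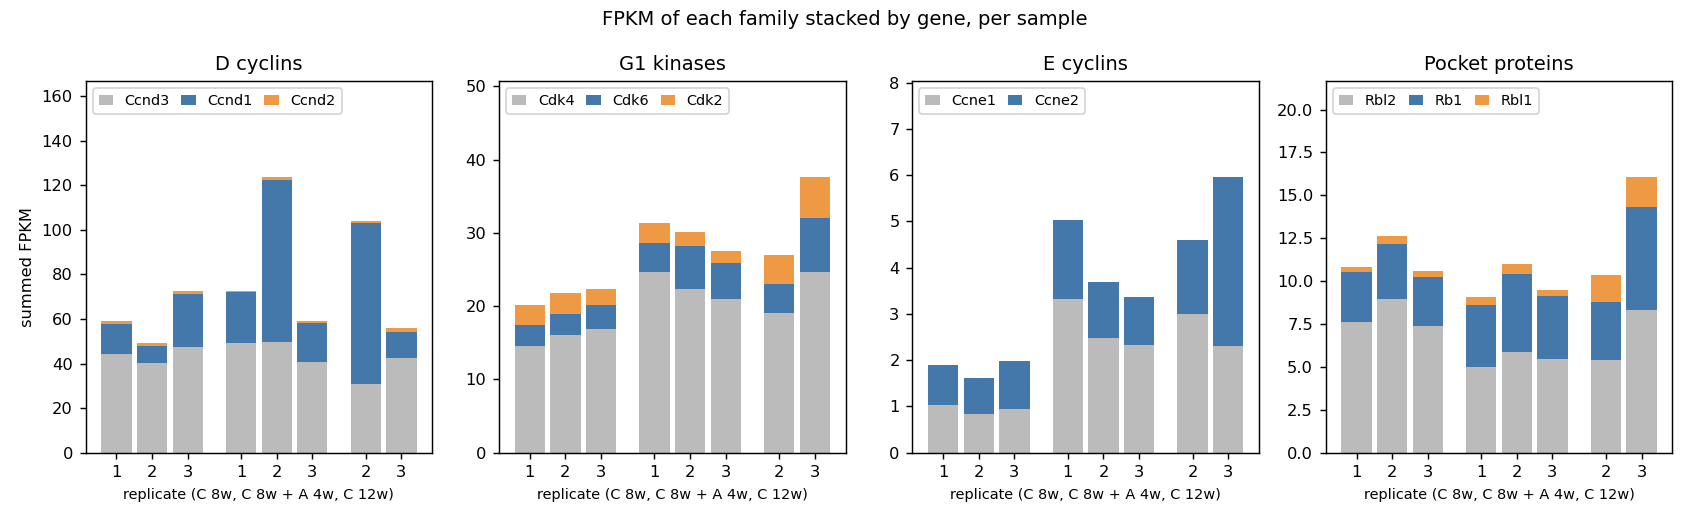
FPKM of each family (vertical axes) stacked by gene for each replicate of the 3 groups, with Rbl2 added to the pocket proteins. Ccnd1 makes up 59.1% and 69.3% of the D cyclins in the tallest bars, and Rbl1 is 10.9% and 15.4% of the pocket proteins in C 12w.

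Of the partners of the D cyclins, Cdk4 was higher in the SALI group than in C 8w. Its FPKM was 14.6, 16.1 and 16.8 in C 8w and 24.6, 22.4 and 20.99 in the SALI group, without overlap. It was 19.0 and 24.7 in C 12w. Cdk4 rose by 0.49 ± 0.13 from C 8w to the SALI group (1.43-fold of the mean FPKM, adjusted p = 0.0165 with limma). The call was lost without C 8w replicate 1 (0.0737), without C 8w + A 4w replicate 1 (0.0546) and under total or quantile scaling (0.0766 and 0.068), where the difference was 0.41 and 0.32, in a range of 0.00569 to 0.0766 over the alternatives. The difference of C 12w from C 8w was 0.43 ± 0.14 with an adjusted p of 0.0645, and 0.61 with 0.0153 without C 12w replicate 2 (range 0.0153 to 0.423). Cdk4 shared 17.0% of its windows with the overlapping gene Tspan31, and the library kit does not mark strand. Tspan31 was far more abundant, at 147 to 285 FPKM, and its difference between the SALI group and C 8w was -0.02 ± 0.23.

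Cdk6, the other kinase of the D cyclins, stood at 2.91, 2.87 and 3.26 FPKM in C 8w. It was 4.04, 5.85 and 4.84 in the SALI group and 3.96 and 7.42 in C 12w, so that all 5 of these samples were above C 8w. Neither difference was called, at 0.55 ± 0.20 (adjusted p = 0.057 with limma) for the SALI group and 0.69 ± 0.22 (adjusted p = 0.0606) for C 12w. The adjusted p for the SALI group was 0.0498 with a pseudocount of 0.1, and it fell to 0.00791 without C 12w replicate 2 and 0.00795 without C 12w replicate 3, or 0.00794 with only the 2 groups compared, where only the estimate of the spread changed (range 0.00791 to 0.158). The adjusted p for C 12w was 0.00354 without C 12w replicate 2 and the difference then 1.07 (range 0.00354 to 0.28), with replicate 3, the sample with the high bile duct markers, as the only C 12w mouse and the spread taken from the other groups. Cdk6 shared 3.32% of its windows with other genes.

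Cdk2, the kinase of the E cyclins, was higher in C 12w than in both other groups. Its FPKM was 2.64, 2.86 and 2.25 in C 8w, 2.72, 1.92 and 1.75 in the SALI group, and 4.01 and 5.48 in C 12w. The C 12w samples lay above all others, while the other groups overlapped. Cdk2 differed by -0.88 ± 0.17 between the SALI group and C 12w, with an adjusted p of 0.00624 (limma) that stayed between 0.00328 and 0.0313 under 17 alternatives. From C 8w to C 12w it rose by 0.67 ± 0.17 (1.84-fold, adjusted p = 0.032), a call that was lost without C 8w replicate 1, 2 or 3 (0.0897, 0.0661 and 0.103) and without C 12w replicate 3 (0.122). Quantile scaling and the lack of a filter also ended it, at 0.0802 and 0.0667, and the range over the alternatives was 0.0109 to 0.221. Between the SALI group and C 8w the difference was -0.20, with an interval from -0.56 to 0.15. Only 0.0620% of its windows were shared.

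The kinases also differed in proportion. Cdk2 made up 13.1%, 13.1% and 10.05% of the summed FPKM of Cdk2, Cdk4 and Cdk6 in C 8w. The shares were 8.67%, 6.38% and 6.35% in the SALI group and 14.8% and 14.6% in C 12w, so that the 3 groups did not overlap. Cdk4 remained the majority kinase transcript in every sample as listed, between 65.7% and 78.5%. It shared 17.0% of its windows with the far more abundant Tspan31, whose part in these shares was not tested.

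Ccne1 was higher in both later groups. Its FPKM was 1.04, 0.826 and 0.934 in C 8w. It was 3.32, 2.48 and 2.32 in the SALI group, and 2.999 and 2.30 in C 12w, and all 5 of these samples were at least 2.30. Ccne1 rose by 0.93 ± 0.14 in the SALI group (2.90-fold of the mean FPKM, adjusted p = 0.00121 with limma) and by 0.91 ± 0.15 in C 12w (2.84-fold, adjusted p = 0.00757) against C 8w. Both comparisons use the same C 8w samples. The first was called under all 17 alternatives, with adjusted p between 0.00051 and 0.00795. The later groups differed by 0.02, with a 95% interval of -0.33 to 0.37. No window of the Ccne1 transcripts was shared with another gene.

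Ccne2, the second E cyclin, was called in C 12w against C 8w. Its FPKM was 0.863, 0.792 and 1.05 in C 8w, 1.72, 1.21 and 1.04 in the SALI group, and 1.59 and 3.65 in C 12w. Both samples of C 12w were above C 8w, but replicate 2 lay within the range of the SALI group. It rose by 0.87 ± 0.24 from C 8w to C 12w (2.90-fold, adjusted p = 0.0376 with limma), and the adjusted p ran from 0.00183 to 0.209 over 18 alternatives, 11 of which ended the call. It was lost without C 8w replicate 1, 2 or 3 (0.110, 0.101 and 0.0856), without C 12w replicate 3 (0.129, with a difference of 0.45) and without C 8w + A 4w replicate 2 or 3 (0.0522 and 0.0571). No filter, quantile scaling and only the 2 groups compared also ended it (0.0779, 0.0624 and 0.0714). The difference of the SALI group was 0.28 (interval -0.21 to 0.77) from C 8w and -0.59 (-1.13 to -0.04, adjusted p = 0.0912) from C 12w, and the latter became -1.01 with an adjusted p of 0.00318 without C 12w replicate 2 (range 0.00318 to 0.509). Ccne2 overlaps Ints8 and shared 14.4% of its windows with it. Ints8 also had its highest value in C 12w replicate 3, 9.51 FPKM against 5.42 to 6.79 elsewhere, and its part in the Ccne2 value there was not tested.

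The E cyclins together summed to 1.84 ± 0.194 FPKM (SD) in the 3 mice of C 8w, to 4.03 ± 0.888 in the 3 of the SALI group and to 5.27 ± 0.959 in the 2 of C 12w. Ccne1 gave 65.8%, 67.2% and 69.0% of that sum in the SALI group and 47.0% to 54.6% of it in C 8w. In C 12w its shares were 65.3% and 38.7%, the first between these ranges and the second below both.

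Of the pocket proteins, Rbl1 was higher in C 12w than in both other groups. Its FPKM was 0.322, 0.495 and 0.355 in C 8w and 0.425, 0.593 and 0.375 in the SALI group, against 1.59 and 1.75 in C 12w. The last group stood apart from the others, which overlapped. At the floor of 0.1 FPKM, Rbl1 rose by 0.94 ± 0.10 in C 12w against C 8w (4.28-fold of the mean FPKM, adjusted p = 0.00141 with limma) and differed by -0.87 ± 0.10 between the SALI group and C 12w (adjusted p = 0.000627). Leaving out any one of the 6 samples of C 8w and SALI, or either of C 12w, gave differences between 0.90 and 1.00 and between -0.93 and -0.83, and both were called each time. Without a C 12w sample these calls rest on 1 mouse and on the spread of the other groups. The SALI group and C 8w differed by 0.07 (interval -0.14 to 0.29). None of the Rbl1 windows was shared with another gene.

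Rb1 itself was at 2.92, 3.17 and 2.84 FPKM in C 8w, 3.64, 4.58 and 3.65 in the SALI group, and 3.35 and 5.95 in C 12w. Every sample of the later groups was above C 8w. The differences were 0.31 ± 0.17 (adjusted p = 0.184 with limma) and 0.47 ± 0.19 (adjusted p = 0.117), and neither was called. The first was called without C 12w replicate 2 or 3 (0.0381 and 0.0383) and with only the 2 groups compared (0.0382, range 0.0381 to 0.501), and the second was 0.81 with an adjusted p of 0.00539 without C 12w replicate 2 (range 0.00539 to 0.599). Rbl2, the third pocket protein and not a member of the set, fell by 0.48 from C 8w to the SALI group (adjusted p = 0.0363), from 7.60, 8.98 and 7.38 FPKM to 4.99, 5.85 and 5.46. At the floor of 0.1 FPKM this call was lost when any one of these 6 samples was left out. Rbl2 was 5.42 and 8.34 in C 12w. Rb1 shared 12.0% of its windows with other genes and Rbl2 17.1%.

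The shares of the pocket proteins also differed between groups. Rbl2 gave 69.7% to 71.0% of the sum of Rb1, Rbl1 and Rbl2 in C 8w, 53.1% to 57.6% in the SALI group, and 52.0% to 52.3% in C 12w. Rb1 gave 25.1% to 26.9% in C 8w, and between 32.3% and 41.6% in the other groups. Rbl1 gave 2.97% to 3.91% in C 8w, 3.96% to 5.38% in the SALI group and 15.4% and 10.9% in C 12w. A share does not change with the scaling of a sample, and these shares are given without a test.

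In all, 2 of the 9 members tested were called between the SALI group and C 8w, Ccne1 and Cdk4, both higher. Of the 10244 genes 39.4% were called, 25.3% as higher and 14.1% as lower, so that the members' share did not exceed the background. Higher genes were 64.2% of these calls, 53.5% under total, 46.7% under median-ratio and 42.6% under quantile scaling, so that the last 2 scalings turned the majority to lower. At the floor of 0.1 FPKM it was 2 of 10, where 33.3% of genes were called, 21.9% as higher and 11.4% as lower. The median difference was 0.31 for the members and 0.12 for all genes. Values did not overlap between the groups for 4 members that were higher (Ccne1, Cdk4, Cdk6 and Rb1) and 1 that was lower (Ccnd2), where 36.8% and 20.1% of all genes did the same. The calls were 1, Ccne1, without C 8w replicate 1 or C 8w + A 4w replicate 1, and 3, with Ccnd2, without C 8w + A 4w replicate 2. They were 5, with Ccnd2, Cdk6 and Rb1, without either C 12w sample. The part that the bile duct and endothelial markers, which also set both later groups apart from C 8w, and the lower hepatocyte markers have in these differences was not tested.

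In C 12w against C 8w, 3 of 9 members were called, Ccne1, Ccne2 and Cdk2, all higher, where 19.2% of all genes were called, 12.2% as higher and 6.98% as lower. Higher genes were 63.6% of these calls, but 44.0% under median-ratio and 43.8% under quantile scaling. The median was 0.67 for the members and 0.12 for all genes. With the floor of 0.1 FPKM, Rbl1 made it 4 of 10, where 16.4% of all genes were called, 10.7% as higher and 5.64% as lower. Values of 7 members were higher without overlap, as they were for 33.5% of all genes, while 18.8% were lower without overlap. The count was 1 of 9, Ccne1, when any C 8w sample or C 12w replicate 3 was left out, and 6 without C 12w replicate 2, when Cdk4, Cdk6 and Rb1 joined. C 12w replicate 3 had the higher value of the pair for 8 of 10 members, the exceptions being Ccnd1 and Ccne1, and for 61.1% of the genes at that floor. That sample also had the high bile duct markers, led by Spp1 at 311 FPKM, and their part in these values was not tested. The part of the tumor label, the higher Col3a1 and Col1a2 and the lower endothelial markers in the differences from C 8w was not tested.

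Between the SALI group and C 12w, 1 of 9 members was called, Cdk2, lower in the SALI group. Of all genes 32.8% were called, 15.4% as lower and 17.4% as higher. The higher share of the calls was 53.1%, and 35.9% under total scaling. With the floor of 0.1 FPKM it was 3 of 10, Cdk2, Rbl1 and Ccnd2, all lower and without overlap, where 29.4% of all genes were called, 13.9% as lower and 15.5% as higher. Without overlap 23.2% of all genes were lower and 27.1% higher. Leaving out C 12w replicate 2 gave 5 calls at the floor of 1 FPKM, with Ccnd2, Ccne2, Cdk6 and Rb1 beside Cdk2. Without C 12w replicate 3 it gave 2, Cdk2 and Ccnd3, and without C 8w + A 4w replicate 2 it gave Cdk2 and Ccnd2.

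**Figure D3:**
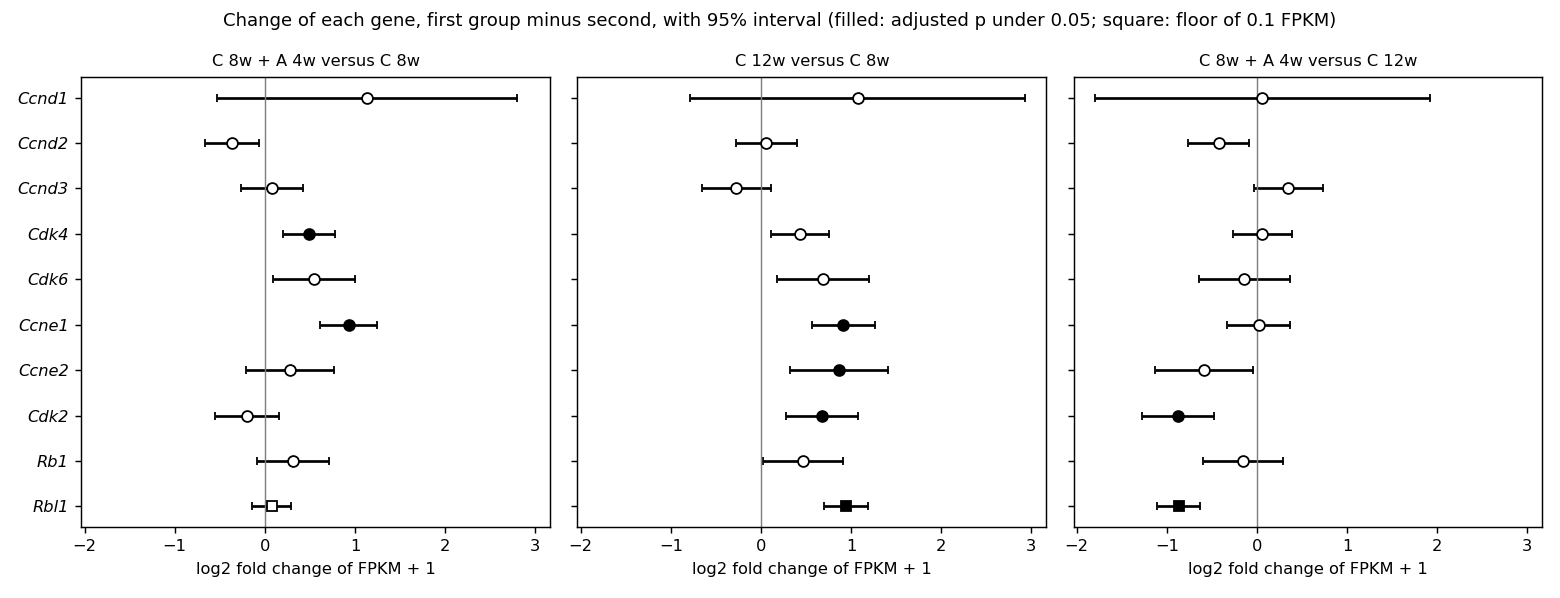
Difference of each member on the log2(FPKM + 1) scale (horizontal axes), first group minus second, with its 95% interval, for the 3 comparisons. Filled symbols passed an adjusted p of 0.05 and squares were tested at the floor of 0.1 FPKM. Ccne1 is filled at 0.93 and 0.91 in both comparisons with C 8w, and Rbl1 at 0.94 and -0.87 in those with C 12w.

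Other genes of the pathway were counted over 7 lists of 98 genes, at the floor of 0.1 FPKM unless stated. The lists were written with earlier results of these data known. At this floor, as given above, the share of all genes called higher was 21.9% in the SALI group against C 8w, 10.7% in C 12w against C 8w and 15.5% in the SALI group against C 12w. The share called lower was 11.4%, 5.64% and 13.9% in the same order. The CDK inhibitors bind the kinases above or their complexes. Of 6 tested, Cdkn2b and Cdkn1a rose and Cdkn1c fell from C 8w to the SALI group, 3 in all where 33.3% of all genes were called, with a list median of -0.23 against 0.10 for all genes. The fall of Cdkn1c, which shared 24.9% of its windows with other genes, was lost without C 8w replicate 1 or 3 and without C 8w + A 4w replicate 1 or 3. Cdkn1a, which inhibits Cdk2 complexes, was at 39.5, 46.0 and 67.0 FPKM in C 8w and at 109, 94.0 and 86.1 in the SALI group. It was 41.4 and 43.2 in C 12w, and so 1.16 higher in the SALI group than there (adjusted p = 0.00494 with limma). Cdkn2b, an inhibitor of Cdk4 and Cdk6, rose by 1.67 in the SALI group and by 0.98 in C 12w against C 8w. From C 8w to C 12w, Cdkn2c and Cdkn1b rose by 1.20 and 0.85, and Cdkn1c fell by 1.00. With Cdkn2b 3 of 6 were higher, and 1 was without C 8w replicate 1 or 2 or C 12w replicate 3. Cdkn2c and Cdkn1b were also lower in the SALI group than in C 12w, with differences of -1.53 and -1.06.

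The E2F factors, several of which Rb1 and its relatives bind, and their DP partners were tested for 9 of 10 genes. In C 12w against C 8w, E2f2, E2f8, E2f3 and E2f5 were higher, 4 of 9 where 10.7% of all genes were, with a list median of 0.66 against 0.10 for all genes. The count was 1, 2 and 1 without C 8w replicate 1, 2 and 3, and 2 without C 8w + A 4w replicate 3. In the SALI group against C 12w, E2f8, E2f1 and E2f2 were lower, with differences of -1.29, -1.15 and -1.06, and Tfdp1 was higher by 1.67. The size for E2f1 depends on C 12w replicate 3. E2f1 was at 2.82 and 7.66 FPKM in replicates 2 and 3 of C 12w and at 1.14 to 2.22 in the SALI group. Tfdp1, an E2F partner, also rose by 2.11 against C 8w, as did E2f3 by 0.75, while E2f8 fell by 0.53, a call lost without any one of the C 8w samples and without C 8w + A 4w replicate 1 or 3. Tfdp1 was at 10.9 to 11.7 FPKM in the SALI group and at 1.53 to 2.96 in the remaining 5 samples, as the series of sample codes divides them, and it shared 16.8% of its windows with other genes. Of the 7 genes of the Rbl2 and MuvB or MYB complexes, which repress cycle genes in resting cells or activate them later, Lin52 rose by 0.83 and Rbl2 fell from C 8w to the SALI group, 2 of 7 where 33.3% of all genes were called. By limma, 0 were called in C 12w against C 8w and 0 in the SALI group against C 12w, and 2 and 0 had an unadjusted p under 0.05. Without C 12w replicate 2 they were 4, higher, and 3, lower.

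Of 23 tested genes that E2F turns on at the entry to S phase, 15 rose from C 8w to C 12w where 10.7% of all genes did, with a median of 0.76 against 0.10 for all genes, and at the floor of 1 FPKM 10 of 16 did, against 12.2%. The count was 10, 12 and 11 without C 8w replicate 1, 2 and 3, and 13 without C 12w replicate 3. Rrm2, a subunit of ribonucleotide reductase, was 10.6-fold of its mean FPKM in C 8w, and 5.95-fold without C 12w replicate 3. Mcm5 and Mcm6, subunits of the replicative helicase, were 6.02-fold and 9.90-fold of their mean FPKM in C 8w. Uhrf1, which maintains DNA methylation, was 10.8-fold. The C 8w means of Mcm6 and Uhrf1 were low, at 0.688 and 0.225 FPKM. Between the SALI group and C 12w, 13 were lower, where 13.9% of all genes were, and 1, Pcna, was higher, with a median of -0.81. Against C 8w, 5 were higher in the SALI group (Pcna, Cdc25a, Chaf1a, Fen1 and Mcm7) and 3 lower (among them Tk1 and Mcm10), with a median of -0.02. These 8 of 23 lay near the background of 33.3%, and 0 were lower without any one of the C 8w samples or without C 8w + A 4w replicate 1 or 3. Of the 5 higher genes, Fen1 shared 76.7% of its windows with other genes, Chaf1a 49.7%, Mcm7 23.3% and Pcna, the sliding clamp of DNA polymerase, 19.1%, and Cdc25a shared none. Pcna was at 20.5 to 25.6 FPKM in the SALI group and at 3.88 to 11.9 in the 5 samples of the other code series. Uhrf1 shared 15.4%.

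Of 14 genes that activate CDKs or turn over G1 cyclins, 7 rose from C 8w to the SALI group where 21.9% of all genes did, with a median of 0.38 against 0.10. The count was 3, 4 and 4 without C 8w replicate 1, 2 and 3, 4 without C 8w + A 4w replicate 2 or 3, and 3 under total scaling. Cks2, a CDK-binding subunit that shared 29.7% of its windows with other genes, rose by 2.50, and Fbxo4, Cks1b and Mnat1 by 0.87, 0.74 and 0.69. Cks2 was at 35.2 to 37.4 FPKM in the SALI group and at 4.96 to 6.41 in the remaining 5 samples, as the series of sample codes divides them. In C 12w against C 8w, Cks1b, Fbxo4, Fbxw7 and Cul1 were higher and Skp1a was lower, 5 of 14 where 16.4% of all genes were called. The higher genes were 0, 1 and 2 without C 8w replicate 1, 2 and 3 and 2 without C 12w replicate 3, and Skp1a was not called without any one of these samples or C 8w + A 4w replicate 3. In the SALI group against C 12w, Cks2, Skp1a, Mnat1 and Cul3 were higher and Skp2, which marks Cdkn1b for breakdown, was lower, 5 of 14 where 29.4% of all genes were called. The Skp2 call was lost when any one sample other than C 12w replicate 2 was left out.

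All 11 genes of S, G2 and M phase that could be tested rose from C 8w to C 12w, where 10.7% of all genes did, with a median of 2.02 against 0.10. They were 11 with any one sample left out, C 12w being 1 mouse in a pair of these fits. Ccnb1, among the 11, passed the floor of 0.1 FPKM only with the help of the C 12w samples and was at most 0.0794 in C 8w. Its rise was therefore not independent of the filter. Against C 12w, 10 of the 11 were lower in the SALI group, where 13.9% of all genes were, with a median of -2.13. Ccnf was the one not called. Between the SALI group and C 8w 1 of them, Ccnf, was called, higher by 0.75, and the median was -0.06. That call was lost without any one of the C 8w samples and without C 8w + A 4w replicate 1 or 2. Mki67, a marker of cycling cells, was at 0.169, 0.372 and 0.208 FPKM in C 8w, at 0.0957, 0.393 and 0.0936 in the SALI group, and at 4.34 and 6.24 in C 12w. Ccna2, the S phase cyclin of Cdk2, was 18.7-fold of C 8w in C 12w, and Ccnb2 and Top2a were 14.2-fold and 23.0-fold. The C 8w means of Ccna2, Ccnb2 and Top2a were 0.340, 0.597 and 0.369 FPKM, so that these folds divide by low values. Without C 12w replicate 3 Top2a was 12.4-fold. At the floor of 1 FPKM Aurka and Ccnf were the genes of this list that could be tested, and both rose from C 8w to C 12w. Aurka reached 1 FPKM in 5 samples, among them both of C 12w, without which it would have failed the floor. Its passing was therefore not independent of its rise.

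The remaining list, 20 other cyclins and CDKs of which 19 were tested, had medians of 0.10, 0.18 and -0.08 in the SALI group against C 8w, in C 12w against C 8w and in the SALI group against C 12w. Cdk8 of the Mediator complex, Ccng1 and Cdk12 rose and Cdk5 fell from C 8w to the SALI group, 4 of 19 and so below the 33.3% of all genes. The higher genes were 1 without C 8w replicate 1 or C 8w + A 4w replicate 1 or 2, and 5 without either C 12w sample. In C 12w against C 8w, Cdk5 was higher and Ccng1 lower, 2 of 19 and below the background of 16.4%. In the SALI group against C 12w, Ccng1 and Cdk8 were higher and Cdk5 and Ccnl2 lower, 4 of 19 and below 29.4%, with 4 lower without C 12w replicate 2 and 1 without C 12w replicate 3. The calls of C 12w against C 8w were both lost without any one of the C 8w samples or C 12w replicate 3.

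**Figure D4:**
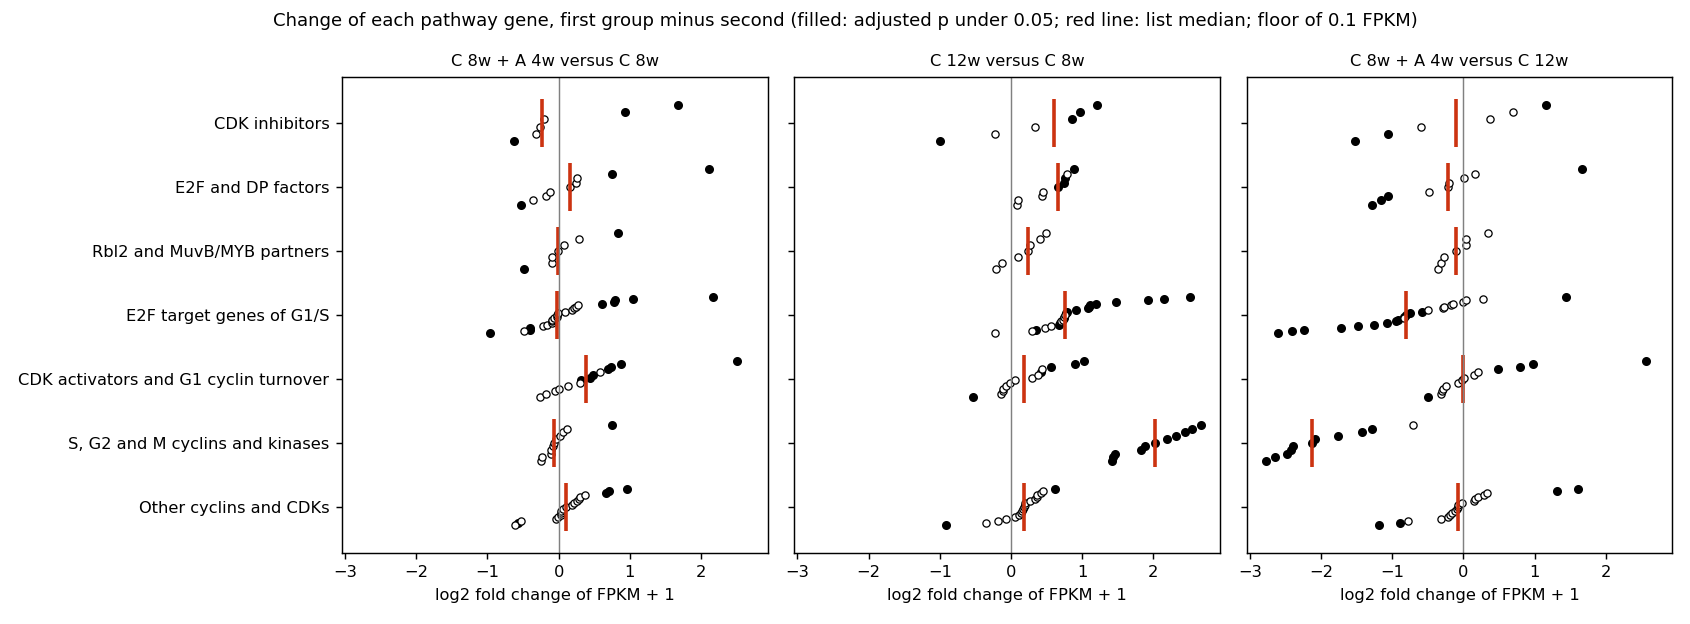
Difference of each tested gene of 7 pathway lists on the log2(FPKM + 1) scale (horizontal axes), first group minus second, at the floor of 0.1 FPKM. Points are genes, filled where the adjusted p was under 0.05, and red lines are list medians. The S, G2 and M list has medians of -0.06, 2.02 and -2.13 in the 3 panels.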

How the data were processed

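Liver or tumor RNA of 8 Fah-/- mice was sequenced and grouped by the treatment labels. The authors deposited FPKM values in one table of 22504 Ensembl genes, 22314 with a symbol, and 0 columns belonged to other samples. The submitters' processing notes name Bowtie 0.12.2 and mm8, and a quantifier is not given in the sources used here. FPKM holds no read counts, so the depth of the samples is unknown.

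log2(FPKM + 1) was fitted for all 8 samples at once with limma 3.58.1 in R 4.3.3 (lmFit, eBayes with a trend, two-sided, Benjamini-Hochberg over all genes tested), without further scaling and with the floors given above. Shares are percentages of a family's summed FPKM. Shared sequence was counted over 50-base windows of GENCODE M21 transcripts, and promoters came from a RefSeq table.

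The members and lists were chosen with earlier results of these data known. All members are named. Of each list, up to 4 called genes per direction and comparison with the largest change are named, and Rbl2, Cdkn1a and Mki67 always. Names that complete a count, LTO1, Tspan31, Ints8, Spp1 and the library checks were chosen after their values were seen. Not every gene counted in a list is reported here by name.

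The alternatives were a pseudocount of 0.1, other filters, median-ratio, total and quantile scaling, no trend, only the 2 groups compared, each sample left out and the replicate number as a block. Genes with at most 2% shared sequence, crossed numbers and the alternatives for Rbl1 and the pathway lists were added after seeing the data.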

Additional observations from a re-analysis of the deposited data

How the results depend on the processing

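Ccne1 (SALI group against C 8w), Cdk2 (SALI group against C 12w) and Rbl1 (SALI group against C 12w) kept their direction and call under every alternative run, although C 12w was 1 mouse where one of its samples was left out, with the spread of the other groups. Members called, by limma, in the SALI group against C 8w were 3 under median-ratio scaling (Ccnd2, Ccne1 and Cdk4), 2 under quantile scaling (Ccnd2 in place of Cdk4), 1 under total scaling, 3 with a pseudocount of 0.1, 5 with only the 2 groups compared, 1 over genes with at most 2% shared sequence and 1 to 5 with a sample left out. Against C 12w they were 2 without a filter, 3 at the floor of 0.1 FPKM, 2 under each of median-ratio, total and quantile scaling (2, 2 and 2) and 1 to 5 with a sample left out. In C 12w against C 8w they were 1 under quantile scaling and 1 to 6 with a sample left out. The cause of these changes was not tested.

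All genes called, in the same order of comparisons, were 2194, 1767 and 1241 over genes with at most 2% shared sequence, where fewer genes were tested. With a sample left out they were 2469 to 5189, 2494 to 4214 and 677 to 3702. The SALI group against C 12w gave 1996 with only these groups fitted.

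No value that changed sign under an alternative was called with all samples at the settings first given. In the SALI group against C 8w, Ccnd3 became -0.085 under median-ratio, -0.010 under total and -0.038 under quantile scaling, and Rbl1 -0.026 under quantile scaling. In the SALI group against C 12w, Ccnd1, Ccne1 and Cdk4 became -0.12, -0.12 and -0.12 under total scaling, and Ccnd1 and Cdk4 -0.0082 and -0.068 under quantile scaling. With a sample left out, Ccnd1 ran from -1.19 to 1.31, Ccne1 from -0.12 to 0.16, Cdk4 from -0.12 to 0.24, Cdk6 from -0.52 to 0.24 and Rb1 from -0.49 to 0.18. In C 12w against C 8w, Ccnd1 ran from -0.18 to 2.32 and Ccnd2 from -0.083 to 0.20, and Ccnd2 became -0.033 under median-ratio and -0.15 under quantile scaling.

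Replicate numbers 2 and 3 occur in the labels of both MCLI groups. The difference of number 2 minus number 3 had a correlation across genes of -0.19 between these groups. That value rests on replicates 2 and 3 of each group alone, so it cannot decide whether the numbers mark pairs. With the replicate number as a block, 0 members and 252 genes were called, and with the numbers crossed, 0 members and 16 genes. Under the block the adjusted p was 0.111 for Ccne1 and, at the floor of 0.1 FPKM, 0.109 for Rbl1, and 2 of 23 E2F target genes and 7 of 11 genes of S, G2 and M phase were called higher. These fits hold 4 samples. FPKM without counts gives no counting error, so that the spread of 2 or 3 mice is the only measure of precision for low genes such as Rbl1 and Ccne2.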
